A study of Mus musculus with 88 samples.

Results

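Embryoid bodies (EBs) of wild-type (WT) mouse embryonic stem cells were compared between day 4 and day 7 of differentiation, in 6 bulk RNA samples of the 88 in the series. The members were every bulk EB sample that the labels give as wild type at day 4 or day 7, which is 1 sample of each of the lines J1, JM8, and Pcl1-3 wt on each day, 3 a side. The study followed EBs and directed cultures of WT cells and of cells lacking subunits of Polycomb repressive complex 2 (PRC2), a histone methyltransferase. The J1, JM8, and Pcl1-3 wt cells are the controls that were chosen for Eed null, Jarid2 null, and Mtf2 null cells. All were kept in serum with leukemia inhibitory factor (LIF) before they were left to aggregate, and LIF was then withdrawn. The labels give poly(A) RNA as the molecule. The study's Methods instead describe rRNA depletion for bulk libraries of monolayer cells, and give no separate protocol for bulk EBs. The columns used for day 0 are named as monolayer cultures. Each line and day is 1 sample, so the spread measured here is that between 3 lines, and what belongs to a line cannot be told apart from what belongs to its culture.

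When stem cells aggregate without LIF, they leave naive pluripotency and pass through a formative epiblast state. Part of the cells then switch on primitive streak genes, as gastrulating epiblast does, and give rise to mesoderm and endoderm, from which blood, endothelium, heart muscle, and the fibroblast-like cells of the mesenchyme derive. EBs do this without a body plan, and lines and batches of EBs are known to differ in how fast they do it.

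The 6 samples held 6250863 to 9694230 reads, in 2 columns each that were averaged. Levels are given as CPM (read counts scaled to a common library total) after TMM scaling, in the order J1, JM8, and Pcl1-3 wt. At the lowest of these depths 1 CPM is about 6.25 reads. These are bulk samples, so fewer cells of a type and less RNA per cell cannot be told apart. Of 96 genes that were at least 16-fold higher in J1 than in both other lines at day 4, 88 were again highest in J1 at day 7, and of 17 that were as much lower in JM8, 16 were again lowest there. For genes as much lower in J1 the count was 3 of 6, and in Pcl1-3 wt 2 of 8.

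Of 15025 genes tested, 27 passed the test between day 4 and day 7, which is 0.180% (limma with the line as a block, Benjamini-Hochberg adjusted p under 0.05, with the spread estimated over the 12 WT samples of days 0, 2, 4, and 7). In 21 of them, 0.140% of the genes tested, the level rose, and in 6, 0.0399%, it fell. The genes that rose were led in size by Igfbp5, Col1a2, and Igf2, and those that fell included the gap junction gene Gja1 and the intermediate filament gene Nes. Of the 27 genes, 25 had 3 day 7 levels on one side of all 3 day 4 levels, a selection the test itself favours. Among all genes tested, 5.75% lay wholly above and 5.63% wholly below. The count rested on the lines entered, since it was 0 without JM8 (688 genes had an unadjusted p under 0.05), 44 without J1, and 284 without Pcl1-3 wt. It was 6 without the term for the line, and DESeq2 on the recovered reads called 749 genes and edgeR 31.

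**Figure D1:**
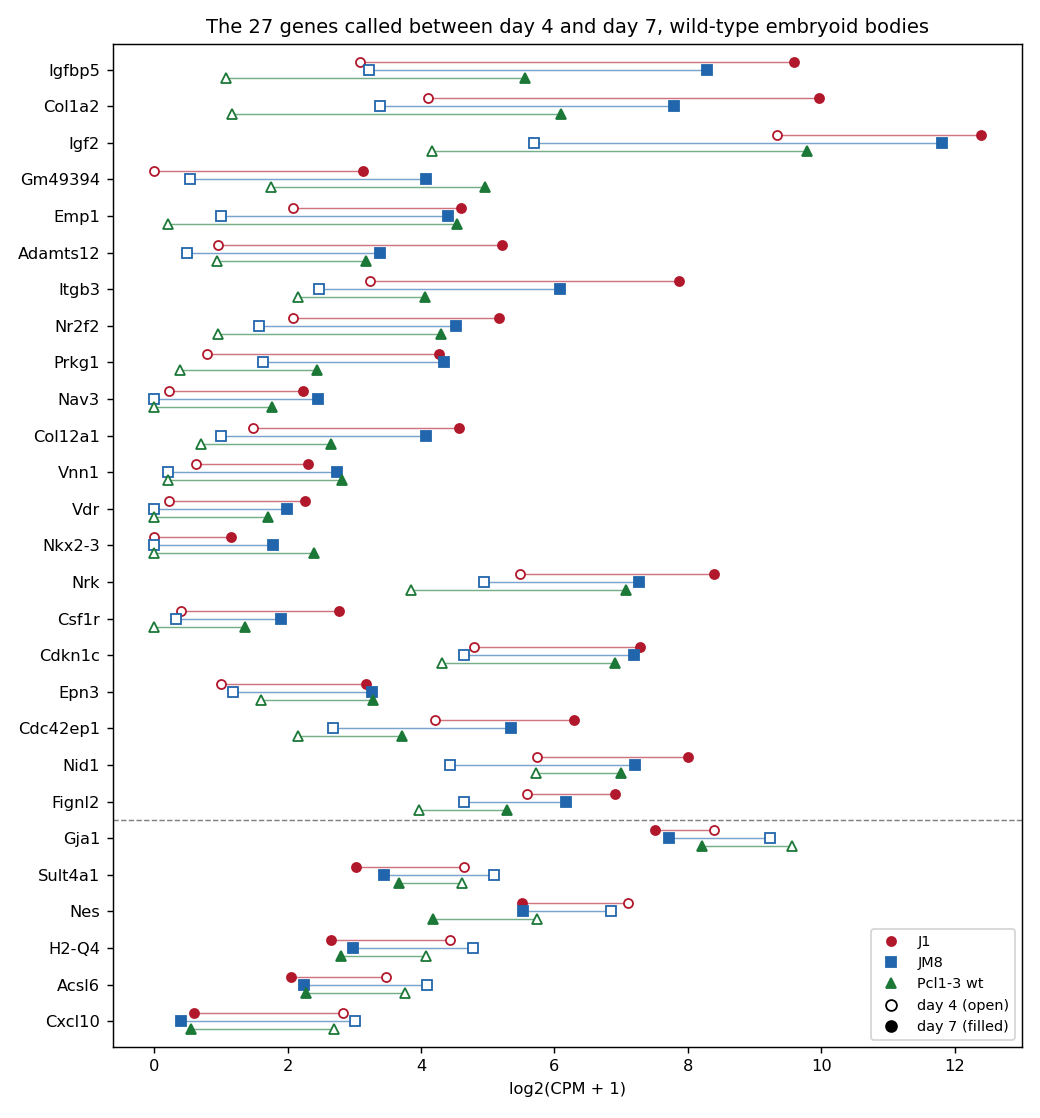
Levels of the 27 called genes in each line, as log2(CPM + 1), with open symbols for day 4 and filled symbols for day 7, 1 sample a line and day. The 21 genes above the dashed line are higher at day 7 in all 3 lines, and the 6 below it are lower in all 3.

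Several genes that rose encode proteins of the extracellular matrix or its receptors. Col1a2 (ENSMUSG00000029661, chromosome 6 from 4504814 to 4541544 in GRCm38), which encodes a chain of type I collagen, was at 16.2, 9.49, and 1.24 CPM at day 4 and at 1002, 220, and 67.4 CPM at day 7. Each line had risen, and the lowest day 7 sample, that of Pcl1-3 wt, lay above the highest day 4 sample. The log2 fold change was 5.26 ± 0.50 (SE, n = 3 lines, limma adjusted p = 0.00698). Col12a1, a collagen that binds to the surface of fibrils, was at 1.81, 1.00, and 0.621 CPM and then at 22.8, 15.9, and 5.31 CPM (log2 fold change 3.16 ± 0.44, limma adjusted p = 0.0243). Adamts12, a secreted metalloproteinase, rose from 0.946, 0.413, and 0.925 CPM to 36.2, 9.44, and 8.06 CPM. Nid1, which encodes nidogen, a linker of the basement membrane, was at 52.6, 20.7, and 51.6 CPM at day 4 and 255, 147, and 127 CPM at day 7 (log2 fold change 2.12 ± 0.29, limma adjusted p = 0.0243). Unlike the other 20 genes that rose, Nid1 had its highest mean at day 0, with 194, 107, and 243 CPM. Itgb3, an integrin chain that binds matrix proteins, rose from 8.41, 4.54, and 3.44 CPM to 233, 67.0, and 15.7 CPM.

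Igfbp5 (ENSMUSG00000026185, chromosome 1 from 72857932 to 72874884), a secreted protein that binds insulin-like growth factors, had the largest change. It was at 7.52, 8.35, and 1.10 CPM at day 4 and 773, 312, and 46.2 CPM at day 7, a log2 fold change of 5.59 ± 0.68 (limma adjusted p = 0.0168). Igf2 (ENSMUSG00000048583, chromosome 7 from 142650766 to 142666816), a growth factor expressed from the paternal allele, stood at 646, 51, and 17.0 CPM and then at 5376, 3593, and 883 CPM. All 3 lines rose and J1 was highest on both days, and the log2 fold change was 4.95 ± 0.61 (limma adjusted p = 0.0168). Gm49394 is annotated on the same strand from 142650769 to 142669942 and spans Igf2, so reads in the overlap can be shared. It rose from 0, 0.459, and 2.38 CPM to 7.80, 15.8, and 30.2 CPM. On both days it was lowest in J1 and highest in Pcl1-3 wt, the reverse of Igf2. Whether shared reads account for its rise was not tested. Because of the overlap it is not read as a separate finding here.

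Cdkn1c (ENSMUSG00000037664, chromosome 7 from 143458339 to 143461050), an imprinted inhibitor of cyclin-dependent kinases, was the most even of the 27 genes across the lines. It was at 26.7, 23.9, and 18.9 CPM at day 4 and at 154, 146, and 119 CPM at day 7, which is a log2 difference of 2.51, 2.59, and 2.63 in the 3 lines. The fitted change was 2.58 ± 0.24 (limma adjusted p = 0.00698), and together with Nr2f2 it kept its call in most alternatives, 15 of 17. Nr2f2, an orphan nuclear receptor of mesenchyme and venous endothelium, went from 3.24, 1.98, and 0.943 CPM to 35, 21.9, and 18.8 CPM (log2 fold change 3.47 ± 0.36, limma adjusted p = 0.0104). At days 0 and 2, Nr2f2 was at or below 0.168 CPM in each line. Without its day 7 levels Nr2f2 would not have passed the filter on low values, so its call is partly selected.

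The other genes that rose were of mixed function. Nrk, an X-linked kinase of the placenta, rose from 43.8, 29.9, and 13.5 CPM to 335, 153, and 134 CPM, and Prkg1, a cGMP-dependent kinase of smooth muscle, from 0.725, 2.09, and 0.308 CPM to 18.4, 19.3, and 4.46 CPM. Emp1, an epithelial membrane protein, rose to nearly the same level in every line, 23.2, 20.2, and 22.3 CPM, from 3.24, 1.00, and 0.154 CPM. It had been higher before day 4, with 18.2, 3.29, and 8.53 CPM at day 0 and 33.3, 2.95, and 8.72 CPM at day 2. Epn3, an endocytic adaptor, also rose to nearly the same level in every line, with 8.01, 8.6, and 8.71 CPM at day 7. Nkx2-3, a homeobox gene of gut and spleen mesoderm, had no read at day 4 in any line and was at 1.23, 2.45, and 4.24 CPM at day 7. Taking 3 reads over the day 4 group as the floor, it was at least 20.7-fold higher. Vdr, the vitamin D receptor, Nav3, a microtubule regulator, Vnn1, a pantetheinase, and Csf1r, the receptor of macrophage colony-stimulating factor, were at or below 6.04 CPM in every sample of these days and rose by a log2 fold change of 2.61 to 3.17. Vdr had been at 1.01, 1.26, and 2.13 CPM at day 0, above its day 4 levels. Nkx2-3, Nav3, Vnn1, Csf1r, and Adamts12 reached 1 CPM only in the 3 day 7 samples. Nr2f2, Epn3, Prkg1, and Gm49394 reached 1 CPM in fewer than 3 samples of the other days. All of these genes passed the filter on low values only because day 7 was high, so their calls are partly selected. Cdc42ep1 and Fignl2 rose in each line but their day 4 and day 7 levels overlapped, since J1 at day 4 (17.4 and 47.1 CPM) was above Pcl1-3 wt at day 7 (12.1 and 38 CPM).

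Apart from Cxcl10, the 6 genes that fell changed by smaller amounts than every gene that rose except Fignl2. Gja1, which encodes connexin 43, fell from 335, 597, and 752 CPM to 181, 210, and 294 CPM (log2 fold change -1.25 ± 0.16, limma adjusted p = 0.0168). Nes, the nestin gene of neural progenitors and other dividing cells, fell from 137, 115, and 52.4 CPM to 44.8, 45.2, and 17.2 CPM (log2 fold change -1.51 ± 0.21, limma adjusted p = 0.0243). J1 and JM8 were close to each other on both days, and Pcl1-3 wt was lowest on both. Cxcl10, an interferon-induced chemokine, had the largest fall, from 6.11, 7.05, and 5.47 CPM to 0.510, 0.322, and 0.474 CPM (log2 fold change -3.03 ± 0.38, limma adjusted p = 0.0168), and had been at or below 1.26 CPM at days 0 and 2. Acsl6, a fatty acid activating enzyme, Sult4a1, a sulfotransferase, and H2-Q4, a class I histocompatibility gene whose reads near-identical family members can share, fell by 1.72, 1.46, and 1.71 on the log2 scale. For 4 of the 6 genes the mean was highest at day 4 among the days measured, so that their fall followed a rise.

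The 27 genes were also read in 3 pairs of libraries that played no part in choosing them, those labelled Eed null, Jarid2 null, and Mtf2 null at days 4 and 7, a comparison added after the WT values were seen. Transcripts of the targeted genes gave a mixed check of these labels. Eed mRNA stood at 114 CPM on day 4 and 62.6 CPM on day 7 under the Eed null label, and at 75.8 and 51.9 CPM in its control J1. Under the Jarid2 null label, Jarid2 was at 265 and 239 CPM against 263 and 319 CPM in JM8, and under the Mtf2 null label Mtf2 was at 248 and 179.5 CPM against 309 and 370 CPM in Pcl1-3 wt. It was thus lower on both days for Mtf2, on day 7 for Jarid2, and on neither for Eed. The study states that the Eed and Jarid2 null lines were checked by western blot and the Mtf2 null line by PCR. For the libraries labelled Eed null, the transcript level adds no check of its own. All 21 genes that rose in WT were higher at day 7 in each of the 3 pairs, a pattern held by 29.5% of all genes tested in WT. With limma on these 6 libraries 17 of the 21 passed in the same direction, and 11.5% of 14792 genes did so. Among the 17, Col1a2 had a log2 fold change of 4.27 ± 0.77 (SE, limma adjusted p = 0.0231) and Cdkn1c of 1.58 ± 0.26 (limma adjusted p = 0.0192). Of the 6 genes that fell in WT, 4 were lower in all 3 pairs (28.4% of all genes tested), and 1, Gja1, passed, where 7.00% of the 14792 genes did. Cxcl10 was the least alike, with log2 differences of 1.64, 0.16, and -0.49 in the pairs labelled Eed, Jarid2, and Mtf2 null. Whether the WT and the other libraries differed in their changes was not tested.

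**Figure D2:**
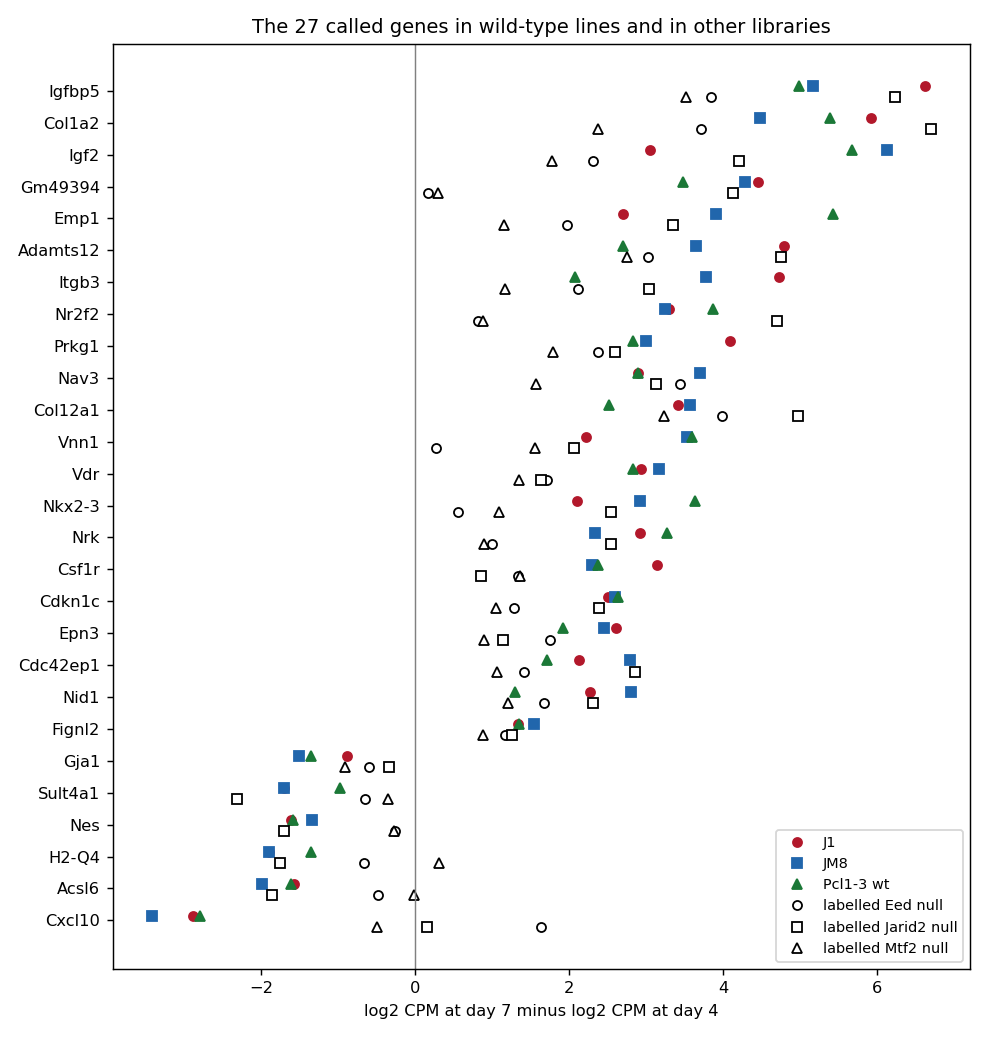
Difference of log2 CPM between day 7 and day 4 for the 27 called genes, with filled coloured symbols for the 3 WT lines and open symbols for the pairs labelled Eed, Jarid2, and Mtf2 null. The 21 genes that rose in WT lie to the right of 0 in all 6 pairs, and the open symbols of Cxcl10 lie on both sides of 0.

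The few calls stood beside large changes within each line that the lines did not share. Between day 4 and day 7, 1534 genes were more than 2-fold higher and 1242 more than 2-fold lower in J1, against 1333 and 869 in JM8 and 848 and 596 in Pcl1-3 wt. Only 243 genes (1.62%) were more than 2-fold higher in each line and 108 (0.719%) more than 2-fold lower. Across the 15025 genes, the day 7 minus day 4 differences had a Pearson r of 0.55 between J1 and JM8, 0.47 between JM8 and Pcl1-3 wt, and 0.22 between J1 and Pcl1-3 wt, with genes that are not independent of each other. On the same log2 scale the root mean square distance between day 4 and day 7 was 0.978 in J1, 0.875 in JM8, and 0.670 in Pcl1-3 wt. J1 at day 4 was as far from JM8 at day 7, 0.976, as it was from J1 at day 7. With 1 sample a line and day, these differences between lines are descriptions without a test.

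Pluripotency genes differed between the lines, and none of them passed the test. Pou5f1 (Oct4), the core factor of pluripotent cells, was at 194, 343, and 374 CPM at day 4 and 27, 171, and 428 CPM at day 7, so that it was lower in J1 and JM8 and higher in Pcl1-3 wt. Nanog was at 126, 305, and 367 CPM and then at 22.4, 260, and 664 CPM. Esrrb, a naive pluripotency factor, was already at 19.9 CPM in J1 at day 4, against 102 in JM8 and 254 in Pcl1-3 wt, and was at 13.9, 156, and 253 CPM at day 7. In the list of 12 core pluripotency genes the median log2 difference was -1.0 in J1, -0.09 in JM8, and 0.05 in Pcl1-3 wt, and in the 12 naive genes -0.32, 0.62, and 0.42. In neither list did any gene pass in either direction. Formative epiblast genes had medians below 0 in every line, -1.83, -0.61, and -0.41, with 0 of 12 called. Among them Zic2 (87.5, 126, and 100 CPM to 5.21, 45.5, and 64.9 CPM) and Dnmt3b (332, 380, and 324 CPM to 57.5, 131, and 261 CPM) had day 7 levels wholly below day 4. Dppa3 (Stella), a gene of naive and germ cells, reached 264 CPM in Pcl1-3 wt at day 7, from 94.8 CPM, and was at 6.21 CPM in J1.

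**Figure D3:**
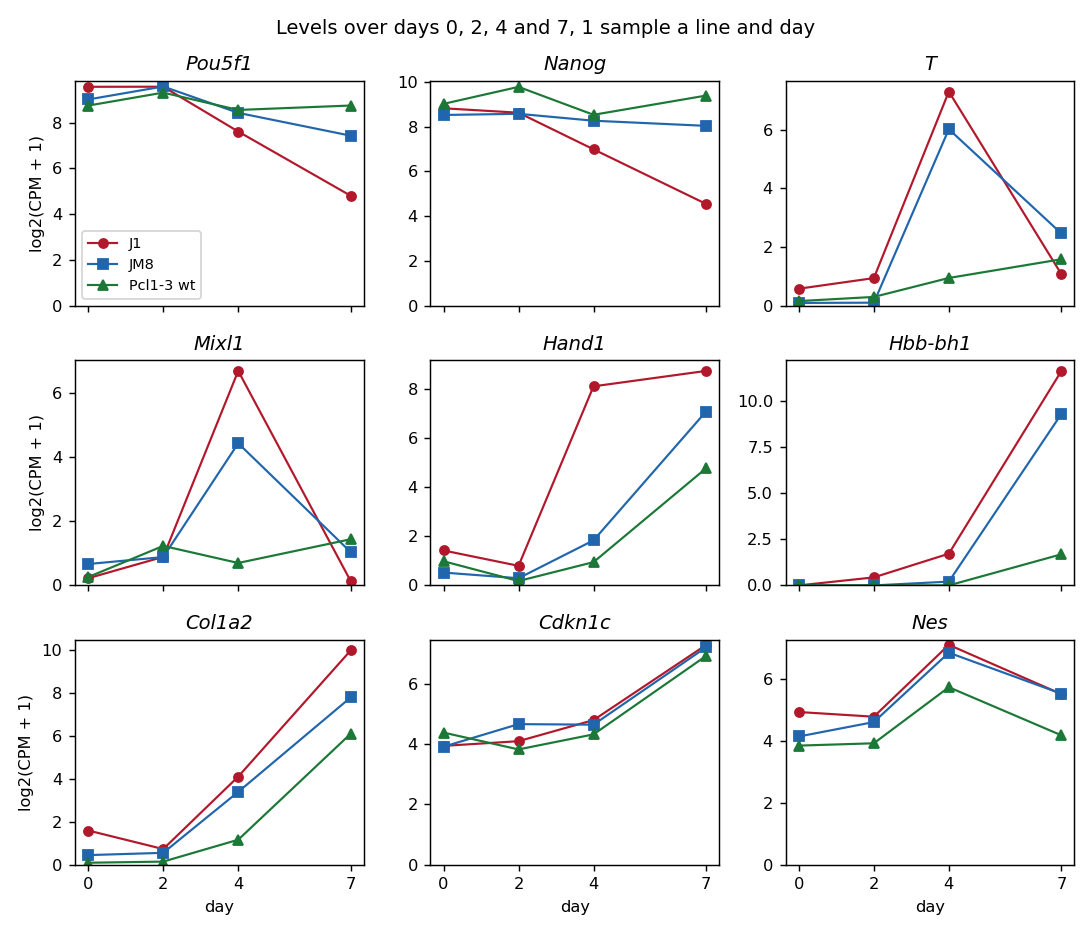
Levels of 9 genes at days 0, 2, 4, and 7 in the 3 WT lines, as log2(CPM + 1), 1 sample a line and day. T and Mixl1 peak at day 4 in J1 and JM8 and stay low in Pcl1-3 wt, Pou5f1 and Nanog are lowest in J1 at day 7, and Cdkn1c and Col1a2 are highest at day 7 in every line.

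Primitive streak genes were high at day 4 in J1, lower in JM8, and near background in Pcl1-3 wt, and 0 of the 13 tested passed. T (Brachyury), the streak and notochord factor, was at 156, 63.8, and 0.938 CPM at day 4 and at 1.12, 4.54, and 2.01 CPM at day 7. Mixl1, a homeobox gene of the streak, was at 103, 20.7, and 0.626 CPM and then at 0.0964, 1.06, and 1.72 CPM. Eomes, a T-box factor of mesoderm and endoderm precursors, was at 145, 22.2, and 11.4 CPM and then at 1.63, 14.7, and 18.2 CPM. The list's median difference was -4.29 in J1, -0.69 in JM8, and 0.96 in Pcl1-3 wt. In J1, 11 of the 13 genes were more than 2-fold lower at day 7 and 0 more than 2-fold higher, and in Pcl1-3 wt 0 were lower and 6 higher. Of all 15025 genes, 1242 were more than 2-fold lower and 1534 higher in J1, and 596 and 848 in Pcl1-3 wt. The summed level of the list went from 822 to 31.7 CPM in J1, from 165 to 65.9 CPM in JM8, and from 20.9 to 46.1 CPM in Pcl1-3 wt.

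**Figure D4:**
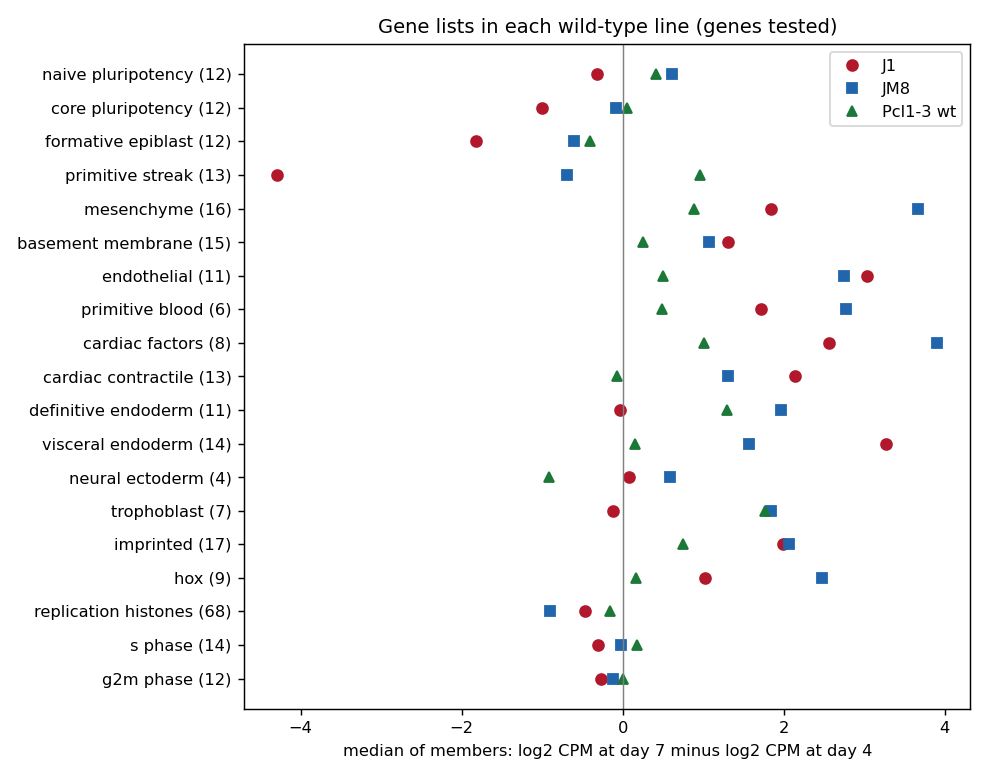
Median difference of log2 CPM between day 7 and day 4 over the tested members of each list, whose number stands in parentheses, for J1, JM8, and Pcl1-3 wt. The lines lie farthest apart for primitive streak genes, from -4.29 in J1 to 0.96 in Pcl1-3 wt, and close together for S phase and G2/M genes.

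Mesenchyme genes had a median log2 fold change of 2.31, against 0.02 over all genes tested. Of the 16 tested of 19 listed, Col1a2 rose and 0 fell by the test, against 0.140% and 0.0399% of all genes. More than 2-fold higher in each line were 5 of the 16, where the share is 1.62% of all genes, and 1 was more than 2-fold lower. Col3a1, a fibrillar collagen, was at 0.586, 0, and 0 CPM at day 4 and at 1545.5, 48.7, and 1.83 CPM at day 7. Postn (periostin), a matrix protein of fibroblasts, went likewise from 1.07, 0, and 0 CPM to 1336.5, 21.4, and 2.06 CPM, and Col1a1 from 107, 4.33, and 2.96 CPM to 1851, 156, and 26.6 CPM. J1 was highest for each at day 7 and Pcl1-3 wt lowest, and none of the 3 passed. For Col3a1 and Postn the day 7 levels alone met the filter on low values, so the count of 5 can be partly selected. The member lower in each line was Thy1, a surface glycoprotein, at 7.33, 19.9, and 19.1 CPM at day 4 and 0.413, 3.41, and 3.19 CPM at day 7 (log2 fold change -2.72, limma adjusted p = 0.0834). Wt1 also had a log2 fold change below 0, -1.01, and did not pass. Basement membrane genes had a median of 1.01, and 1 of 15 rose, Nid1, against 0.140% of all genes. The type IV collagens Col4a1 (321, 64.8, and 25.3 CPM to 928, 428, and 124 CPM) and Col4a2 (163, 29, and 13.1 CPM to 598, 306, and 98.9 CPM) were more than 2-fold higher in each line and did not pass.

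Primitive blood genes reached a summed level of 7808 CPM in J1 and 1254 CPM in JM8 at day 7, against 13.2 CPM in Pcl1-3 wt, from 132, 17.4, and 9.39 CPM at day 4. The filter on low values kept 6 of the 15 listed and 0 of the 6 passed. The embryonic globin Hbb-bh1 was at 2.29, 0.153, and 0 CPM at day 4 and at 3153, 627, and 2.22 CPM at day 7. Among the 9 genes left out, Hba-x, the embryonic alpha-like globin, was at 0.0864, 0, and 0 CPM and then at 2574, 251, and 0 CPM, and Hbb-y, an embryonic beta-like globin, at 0.0864, 0, and 0 CPM and then at 493, 134, and 0 CPM. Alas2, which starts heme synthesis in red cells, reached 139, 12.9, and 0.116 CPM. Tal1, a factor of blood and endothelial precursors, was at 49.9, 4.04, and 0.780 CPM already at day 4 and at 80.5, 32, and 1.57 CPM at day 7. Hba-a1 and Hba-a2 are near-identical, so that the split of their reads is uncertain.

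The promoters of 4 blood genes are shown because members rose in J1 and JM8 and because GATA factors, which regulate red cell genes, are known to bind GATA letters. Of the 6 tested members, 4 were more than 2-fold higher in J1, 6 in JM8, and 1 in Pcl1-3 wt. Of all 15025 genes, 1534, 1333, and 848 were. Hbb-bh1, among the 6, met the filter on low values by its day 7 levels alone. RefSeq promoters (GRCm38.p6) were found for 12 of the 15 blood genes, and the 250 bases before the start held AGATAA or TGATAA on either strand in 9 of them, 75%, against 17.0% of 27025 promoters. Those of Gata1, Runx1, and Hbb-bt held no such match, while each of the 4 shown holds one. TATAAA was found in 3 of the 12, against 12.9%. In 16 cardiac contractile and 16 visceral endoderm promoters, AGATAA or TGATAA stood in 4 each, 25%. These letter matches are descriptions and not binding sites, and the blood promoters are not independent, as globin genes are related. Capitals mark the matches, and a match on the other strand appears as its reverse complement. Of the 4 shown, Hba-x lies on the plus strand at chr11:32276350-32276599, Hbb-y on the minus strand at chr7:103853208-103853457, Alas2 on the plus strand at chrX:150547167-150547416, and Tal1 on the plus strand at chr4:115056176-115056425, each 5′ to 3′ on the gene's own strand.
Hba-x: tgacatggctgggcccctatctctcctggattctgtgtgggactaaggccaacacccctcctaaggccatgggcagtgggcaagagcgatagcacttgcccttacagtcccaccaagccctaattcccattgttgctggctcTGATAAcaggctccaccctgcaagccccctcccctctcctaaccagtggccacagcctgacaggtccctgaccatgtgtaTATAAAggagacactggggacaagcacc
Hbb-y: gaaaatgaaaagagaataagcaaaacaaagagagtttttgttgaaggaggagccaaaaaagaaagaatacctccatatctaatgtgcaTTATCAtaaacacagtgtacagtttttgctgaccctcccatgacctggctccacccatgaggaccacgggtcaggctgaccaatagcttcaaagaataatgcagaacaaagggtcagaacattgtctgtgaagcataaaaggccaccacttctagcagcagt
Alas2: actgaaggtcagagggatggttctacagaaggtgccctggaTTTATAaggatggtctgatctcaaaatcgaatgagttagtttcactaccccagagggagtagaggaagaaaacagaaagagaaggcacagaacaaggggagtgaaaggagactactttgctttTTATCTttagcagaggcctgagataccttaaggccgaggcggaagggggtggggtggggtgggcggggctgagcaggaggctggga
Tal1: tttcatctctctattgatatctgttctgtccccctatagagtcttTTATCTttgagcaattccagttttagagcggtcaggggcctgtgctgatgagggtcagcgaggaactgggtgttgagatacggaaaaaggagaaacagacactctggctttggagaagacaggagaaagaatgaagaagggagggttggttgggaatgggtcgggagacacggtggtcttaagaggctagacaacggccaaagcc

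Endothelial genes, the closest kin of blood in the embryo, were more than 2-fold higher at day 7 in 7 of 11 tested in J1, 11 of 11 in JM8, and 1 of 11 in Pcl1-3 wt, and 0 passed. Over all 15025 genes, the counts more than 2-fold higher were 1534, 1333, and 848. Cdh5 (VE-cadherin) was at 8.34, 1.39, and 0.471 CPM at day 4 and at 143, 76.3, and 1.13 CPM at day 7. Kdr, a receptor of vascular endothelial growth factor, was already at 302 CPM in J1 at day 4, against 2.68 and 2.96 CPM in the other lines, and was at 219, 135, and 3.99 CPM at day 7. Of the white blood cell markers 2 were tested, and Csf1r was the member that rose, against 0.140% of all genes. The defining marker Ptprc (CD45) had no read at day 4 and was at 2.01, 0, and 0 CPM at day 7, and Tyrobp at 5.16, 0.103, and 0 CPM, so that Csf1r rose also in lines in which Ptprc was not detected.

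Heart genes followed the same order of lines. Of 8 cardiac factors tested, with a median log2 fold change of 2.64, 0 passed. More than 2-fold higher in each line were 2, against 1.62% of all genes. These were Mef2c (0.965, 0.566, and 0 CPM to 55.2, 21.7, and 1.12 CPM) and Smyd1 (0.638, 2.09, and 1.88 CPM to 12.4, 8.04, and 4.94 CPM), both genes of muscle differentiation. The day 7 levels of Mef2c alone met the filter on low values, so its place in this count can be partly selected. Hand1, a factor of lateral and extraembryonic mesoderm, was at 275, 2.57, and 0.930 CPM at day 4 and 426, 135, and 26.3 CPM at day 7. Of 13 contractile genes tested 0 passed. Myh7, a myosin heavy chain, was at 3.01, 5.57, and 1.10 CPM and then at 80.6, 41, and 8.28 CPM (limma adjusted p = 0.06635), while Tnnt2, the cardiac troponin T, reached 15.6, 4.50, and 0.322 CPM. Of 5 smooth muscle genes tested 0 passed, with a median of -0.31. Among them Acta2, smooth muscle actin, went from 18.1, 2.33, and 3.30 CPM to 569, 124, and 13.1 CPM (limma adjusted p = 0.0707), while Cnn1 (calponin) went the other way, from 25.6, 18.2, and 6.70 CPM to 5.89, 4.24, and 2.13 CPM (limma adjusted p = 0.0672).

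Endoderm genes also differed between the lines. In the visceral endoderm list 0 of 14 passed, and 12 of the 14 were more than 2-fold higher in J1, 9 in JM8, and 3 in Pcl1-3 wt. Of all 15025 genes, 1534, 1333, and 848 were. Ttr, a carrier of thyroid hormone, was at 1.43, 0.673, and 0 CPM at day 4 and at 194, 3.78, and 0.269 CPM at day 7, and Afp, alpha-fetoprotein, at 3.55, 3.30, and 0.159 CPM and then at 150, 14.3, and 0.0895 CPM. The summed level of the list rose in J1 only, from 440, 351, and 356 CPM to 2121, 344, and 275 CPM. One listed gene, Lrp2, was lower in each line (log2 fold change -0.59). Definitive endoderm genes had a median difference of -0.04 in J1, 1.97 in JM8, and 1.29 in Pcl1-3 wt, with 0 of 11 called. Sox17 was at 13.9, 0.696, and 0 CPM at day 4 and at 11.8, 7.36, and 3.04 CPM at day 7. Of 13 neural ectoderm genes 4 were tested, 0 rose, and 1, Nes, fell, against 0.140% and 0.0399% of all genes. Pax6, a factor of neural progenitors, stood at 0.173, 1.5, and 5.47 CPM and then at 0.578, 1.60, and 2.59 CPM.

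Hox genes, which pattern the body axis, separated the lines at day 7. Of 39 in the table, the number at 1 CPM or more was 8 in J1, 2 in JM8, and 1 in Pcl1-3 wt at day 4, and 25, 29, and 1 at day 7. The filter kept 9, and 0 passed. Hoxc8 had no read at day 4 in any line and was at 9.48, 5.27, and 0 CPM at day 7, at least 38.8-fold higher over the group against 3 reads. Hoxc6 was at 0, 0.130, and 0 CPM and then at 9.98, 5.02, and 0 CPM.

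Imprinted genes had the most calls of any list, 2 of 17 tested, Igf2 and Cdkn1c, where 0.140% of all genes rose. Their median log2 fold change was 1.63. More than 2-fold higher in each line were 5 of the 17 and lower 0, against 1.62% and 0.719% of all genes. Besides the called pair these were Dlk1, a Notch-related ligand of growing mesoderm (8.08, 1.52, and 0.467 CPM to 276, 66.3, and 6.56 CPM, limma adjusted p = 0.06635), Peg3 (1442.5, 178, and 83.6 CPM to 4161, 1086, and 386 CPM), and Zim1 (13.4, 1.17, and 2.04 CPM to 78.4, 14.1, and 5.15 CPM). The summed level of the 17 went from 6983, 2501, and 1407 CPM to 19375, 11334, and 4274 CPM. Snrpn went the other way, with 201, 166, and 166 CPM at day 4 and 125, 85.3, and 152 CPM at day 7. The deposited table has no row matched to H19, Meg3, Rian, Mirg, or Kcnq1ot1.

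S phase genes had a median log2 fold change of -0.03, G2/M genes of -0.09, glycolysis genes of -0.02, oxidative phosphorylation genes of 0.03, and PRC2 subunits of -0.06, with 0 called in each. Replication-dependent histone genes, whose mRNAs largely lack a poly(A) tail, had a median of -0.54. The labels give poly(A) RNA, while the Methods describe rRNA depletion for monolayer bulk libraries. Of the 68 tested 45 were lower in each line, against 19.5% of all genes, and 0 were higher in each line, against 23.7%, and 29 lay wholly below day 4, against 5.63%, while 0 passed the test. Their summed level went from 15067, 17723, and 13180 CPM to 10430, 9430, and 12037 CPM. Mitochondrially encoded transcripts went from 18691, 24552, and 24903 CPM to 14771, 17366, and 27651 CPM. Over all 46 lists, 40 had 0 called genes, and 6 distinct members of the others passed. The lists held 550 distinct genes tested, and 0.180% of all genes passed. The 6 were Col1a2, Nid1, Igf2, Cdkn1c, Csf1r, and Nes, of which Csf1r passed the filter only through its day 7 levels.

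WT E14 cells, another line, were sequenced as single cells in EBs at days 0, 4, 7, and 10, with 1 library a day, 331 kept cells and 2141838 unique molecular identifiers (UMIs) at day 4 and 316 cells and 2123799 UMIs at day 7. The values are summed UMIs as CPM with exact Poisson 95% intervals, which cover counting error only, and no test was made. Of the 27 genes, 22 are listed in that table and 18 had a UMI at day 4 or 7, of which 13 differed in the direction of the bulk samples, 8 of them with intervals that do not overlap. Of the 13 that rose in bulk 11 were higher in E14 at day 7, 7 with intervals apart, where 64.7% of 12782 genes were higher and 22.2% with intervals apart. Of the 5 that fell 2 were lower, 1 with intervals apart, against 35.3% and 8.93%. Col1a2 went from 0.467 CPM (0.0118 to 2.60) to 52.3 CPM (43 to 62.9) and reached 345 CPM at day 10. Cdkn1c went from 38.8 CPM (30.9 to 48.0) to 87.6 CPM (75.4 to 101.1). In the opposite direction with intervals apart were Nid1 (70.0 to 44.7 CPM), Gja1 (123 to 228 CPM), and Nes (13.5 to 26.4 CPM). The E14 cells also differed in time. T was at 1.40 CPM at day 4, 246 CPM at day 7, and 5.72 CPM at day 10, and Mixl1 at 0.467, 109, and 30 CPM, so that in E14 the streak genes were highest at day 7, where J1 and JM8 bulk samples had them highest at day 4. Hbb-bh1 was at 0, 273, and 6204 CPM, and Col3a1 at 0, 19.3, and 368 CPM. Bulk and single-cell values come from other cells, protocols, and cultures, and the cause of the shift in days was not tested.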

How the data were processed

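Bulk RNA-seq values were deposited as signal, that is, gene-level reads divided by a size factor for each column by the authors. The submitters' processing notes name CASAVA, Salmon, DESeq2, and mm10. Single-cell values were deposited by the authors as UMI counts, and every deposited WT E14 cell was used.

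Of the bulk columns, 23 WT columns and 12 columns labelled Eed, Jarid2, or Mtf2 null were used, and 11 were not used here. Whole reads were recovered for 100% of values within 0.02. Columns of the same sample were averaged, then scaled by TMM (edgeR 4.0.16), and turned into log2 CPM with a prior count of 2. Genes with at least 1 CPM in 3 of the 12 WT samples (days 0, 2, 4, and 7) were tested with limma 3.58.1 (trend) in R 4.3.3, two-sided, with the line as a block. A gene could pass this filter through its day 7 levels alone, so counts of rises among tested list members can be partly selected. Fold changes are on this scale and understate those of low genes. Day 4 and day 7 deviations of the same line correlated at 0.67, 0.53, and 0.66 over 15025 genes, and the block follows the cell line given in the labels. The study describes bulk samples as run in technical duplicate and the lines as distinct, so p-values measure the spread between 3 lines with 1 sample each a day. The 12 columns of days 4 and 7 held 3005707 to 5616667 reads. Counting intervals cover counting error only.

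The members and the 46 gene lists were chosen with earlier results of these data known. Named genes were list members, the 10 called genes of largest change in each direction with a mean of at least 5 CPM on the higher day, the 5 called genes of lowest adjusted p in each direction, and the 5 genes with at least 10 CPM in a sample whose change differed most between lines without a shared sign, predicted Gm and Rik models left out of all but the lists. Other called genes, and the libraries labelled null, were taken up after their values were seen. The 17 alternatives covered the samples fitted, block, scaling, prior count, filter, tool (edgeR and DESeq2 1.42.0 on recovered reads), threshold, columns, and leaving out each line. Scripts were tested on simulated data.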

Additional observations from a re-analysis of the deposited data

Results flagged for a closer look

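In 5 genes the day 7 minus day 4 change went in opposite directions in different lines and spanned the widest range. The difference between lines was not tested, since each line has 1 pair of samples. The range over the lines was 8.85 on the log2 scale for Mixl1, whose levels are given above, and 9.25 for Slc4a1, the red cell anion exchanger, which was at 0.206, 1.13, and 0.938 CPM at day 4 and 204, 7.08, and 0.385 CPM at day 7. For Lars2, a mitochondrial leucyl-tRNA synthetase, it was 8.77, and the columns of a single sample differed widely in this gene. For the pseudogenes Gpx4-ps2 and Rpl10a-ps1 it was 14.35 and 8.71, and reads of a pseudogene can be shared with its parent gene.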

How the results depend on the processing

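None of the 27 called genes reversed its direction under those of the 17 alternatives in which it was tested. Of 548 uncalled list members and widest-range genes, 144 changed sign under at least 1 alternative, among them Gpx4-ps2 (-1.20, and 2.13 without JM8), Rpl10a-ps1 (2.15, and -0.59 without Pcl1-3 wt), Eomes, Esrrb, Kdr, Nanog, and Pax6. The median of the naive pluripotency list went from 0.13 to -0.03 without JM8. The count of called genes (27, with 21 higher, 6 lower, and 6 list members) moved with the setting. Without the replicate block it was 6 (5, 1, and 1). With the 6 samples of days 4 and 7 alone it was 42 (32, 10, and 11). A prior count of 0.5 gave 13 (9 higher) and of 5 gave 50 (35 and 15). No filter on low values gave 54 (46 higher), and 5 CPM in 3 samples gave 10 (7 and 3). DESeq2 on recovered reads gave 749 (498, 251, and 87), 25 of the 27 among them, and edgeR 31 with 10 list members, 16 of the 27 among them. The first column of each sample gave 48 (38 and 10). At an adjusted p under 0.001 limma called 0 (0, 0, and 0), while 2611 genes had an unadjusted p under 0.05. Leaving out 1 line gave 0 to 284 called genes, 0 to 193 higher, 0 to 91 lower, and 0 to 49 list members, with the lowest without JM8 and the highest without Pcl1-3 wt. Why these counts moved was not tested. Depth limits genes near 1 CPM, about 6.25 reads in the shallowest sample.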
